A study of Homo sapiens with 12 samples.

Results

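The genes described here are 38 members of metal ion transport and sensing, chosen by symbol from the 98711 genes listed in each of 12 tables of sorafenib-resistant and parental liver cancer cells. They comprise 9 zinc exporters of the SLC30 family, 13 zinc importers of the SLC39 family, 7 genes of copper uptake, export and delivery, 2 mitochondrial iron carriers, 6 magnesium transporters and the zinc sensor MTF1. All 38 were found, each with 1 row. RNA was sequenced from Huh7 and HepG2 cells, both wild-type hepatocellular carcinoma lines per the labels, with 3 samples each of resistant Huh7, parental Huh7, resistant HepG2 and parental HepG2 cells. Resistant cells had survived repeated rounds of sorafenib, a multikinase inhibitor, which began with 24 h at 10 μmol and rose in concentration over 8 months, and parental cells received none. The labels do not say whether the 3 samples of a group were separate cultures, or whether a resistant line was 1 clone, so the p-values measure the spread between these samples.

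Zinc enters the cytosol through SLC39 proteins (ZIP), from outside the cell or from organelles, and leaves it through SLC30 proteins (ZnT), across the plasma membrane or into vesicles and the Golgi. Free zinc activates the transcription factor MTF1, which binds metal response elements and switches on metallothionein genes and the plasma membrane exporter SLC30A1. The liver is the main organ of copper handling: copper enters hepatocytes through SLC31A1, is passed on by chaperones, and is loaded onto ceruloplasmin or exported into bile by ATP7B.

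Because SLC30A1 is a known target of MTF1, promoters of the members were searched for the core of the metal response element, TGCACNC or TGCGCNC on either strand, in the 250 bases before the RefSeq start (GRCh38.p14). The core was present in 11 of the 34 members with a promoter in the table (32.35%) and in 24.72% of all 27305 promoters. At least 2 cores, some of which overlapped each other, were present in 4 members (11.76%) and in 6.51% of all promoters. The windows of SLC30A1 (chr1:211579162-211579411, minus strand) and SLC30A6 (chr2:32165614-32165863, plus strand) are shown because both are zinc exporters whose change differed between the lines and whose window held TGCACNC. They are written 5′ to 3′ in the direction of the gene, with the core in capitals. Both cores lie on the strand opposite to the gene, 49 to 43 bases before the start in SLC30A1 and 128 to 122 in SLC30A6.
SLC30A1: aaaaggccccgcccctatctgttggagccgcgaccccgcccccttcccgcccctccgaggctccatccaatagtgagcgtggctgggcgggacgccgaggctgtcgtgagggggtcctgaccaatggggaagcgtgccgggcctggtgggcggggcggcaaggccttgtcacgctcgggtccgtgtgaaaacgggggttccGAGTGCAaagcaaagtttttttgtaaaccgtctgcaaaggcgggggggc
SLC30A6: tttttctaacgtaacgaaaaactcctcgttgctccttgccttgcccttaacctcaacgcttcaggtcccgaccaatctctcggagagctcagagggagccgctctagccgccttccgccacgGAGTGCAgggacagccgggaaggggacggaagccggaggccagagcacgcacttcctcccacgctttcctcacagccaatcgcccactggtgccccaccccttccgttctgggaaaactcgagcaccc
The window of SLC30A9, the zinc exporter with the largest fall in Huh7 cells among those tested, held neither core. A match of these letters is a description and not evidence of binding.

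Values are decimals without a stated unit, with the pattern of fragments scaled to exon length and library size (FPKM). The steps between low values give 16158299 to 19285959 reads behind a Huh7 sample and 12290128 to 18281776 behind a HepG2 sample. Parental HepG2 samples were the shallowest, with at most 15728848. Changes are differences of log2(FPKM + 1), which understate the change of genes near or under 1 FPKM. A gene entered the limma test where 3 or more of the samples compared reached 1 FPKM, p-values were adjusted over all such genes, and a gene passed at an adjusted p under 0.05. Differentially expressed means passed, with a log2 fold change above 1 or below -1. Summed over 10 markers of the hepatocyte lineage, levels were 5812.9 to 6012.7 FPKM in resistant and 8373 to 10114 in parental Huh7 samples, and 3912.5 to 4199 against 4978.7 to 6099.9 in HepG2 samples. These sums follow the most abundant markers, such as AFP, with means of 2291 FPKM in resistant and 5332 in parental Huh7 cells. By count, 3 of the 10 markers passed as higher (APOA1, HNF4A and GPC3) and 3 as lower (AFP, ALB and APOB) in Huh7 cells, against 32.7% and 37.4% of all genes. The median over the 10 was 0.18 on the log2 scale. In HepG2 cells 1 passed as higher (GPC3) and 3 as lower (AFP, FGB and ALB), against 11.6% and 8.43% of all genes. The median of the markers there was 0.01. Their part in the results was not tested. Fibroblast, endothelial and leukocyte markers summed to 1.8144 to 5.3242, 1.1704 to 3.6639 and 1.0448 to 1.8382 FPKM. In bulk RNA, fewer cells of a kind and less RNA per cell cannot be told apart. The change between resistant and parental Huh7 cells moved with the GC content of the transcripts, with a Spearman correlation of 0.617 across 12545 genes, which share the same 6 libraries. It was 0.0389 across 11756 genes in HepG2 cells. Values with each library's GC trend removed are therefore given beside the deposited Huh7 changes, and beside HepG2 changes of members where they alter a call. Among the hepatocyte markers in Huh7 cells, HNF4A (0.30), FGB (0.59) and TF (0.57) then passed as higher and AFP (-0.54) as lower. APOA1 (0.40, adjusted p = 0.101), GPC3 (0.03, 0.84), ALB (-0.0043, 0.979) and APOB (-0.24, 0.242) no longer passed.

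Metal transport genes spanned a wide range of levels. SLC31A1, the copper importer, was the most abundant member in each group, with means of 66.8 FPKM (parental Huh7), 66.5 (resistant Huh7), 119 (parental HepG2) and 71.8 (resistant HepG2). It was followed, by the mean over 12 samples, by SLC39A14 (33.3 FPKM), SLC30A6 (24.2), SLC39A9 (23.2) and SLC30A7 (21.7). At the other end, SLC30A2, SLC30A4 and SLC39A2 had at most 0.0930, 0.169 and 0.165 FPKM in a sample. The mean was at least 1 FPKM for 30 members in resistant Huh7 cells and for 31 in each other group.

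**Figure D1:**
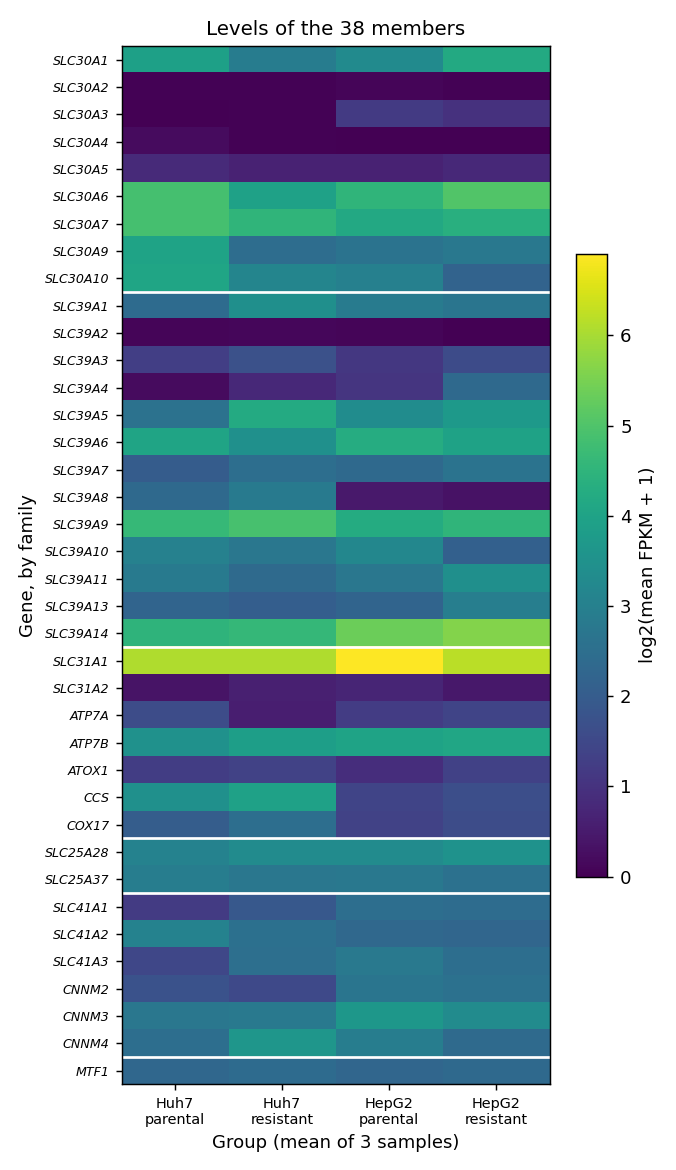
Heat map of log2(mean FPKM + 1) of the 38 members (rows, by family) in the 4 groups (columns, mean of 3 samples). SLC31A1 is the brightest row in each group, and SLC39A8 is brighter in the Huh7 columns (means 4.17 parental and 6.25 resistant, in FPKM) than in the HepG2 columns (0.383 and 0.263).

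In Huh7 cells, 31 members were tested and 20 passed (64.5%), where 70.1% of the 12554 genes tested passed. Of these 20, 11 rose and 9 fell in resistant cells, where 32.7% and 37.4% of all genes did. Differential expression was called for 7 members (22.6%, against 22.6% of all genes tested). SLC39A5, CNNM4, SLC41A3 and SLC39A1 were the higher ones (8.59% of all genes), and SLC30A9, ATP7A and SLC30A1 the lower ones (14.0%). ATP7A met the filter only through its parental samples, where it was high. The resistant and parental samples did not overlap in 23 of the 31, against 74.5% of all genes. The shares are near the background, so the counts describe the members without setting them apart. The median log2 fold change of the members was 0.09, against -0.04 over all genes tested. Leaving out parental replicate 2 lowered the number that rose to 7 and the number differentially expressed to 4. With the GC trend removed, 11 of the 20 passed in the same direction, 3 kept the direction without passing, 4 changed direction without passing, and SLC30A7 and SLC41A2 passed in the opposite direction. A further 7 members then passed that had not before, SLC39A9 and SLC39A10 as higher and SLC25A37, SLC25A28, CNNM2, CNNM3 and SLC39A13 as lower. Only SLC39A5 was then differentially expressed. Shares of all genes are given for deposited values only, and for limma calls only at an adjusted p. Counts of calls made in any other way, here and below, therefore have no background beside them. These are counts with the GC trend removed, at an unadjusted p, by limma-voom, under another scaling or with a sample left out.

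In HepG2 cells, 32 members were tested and 6 passed (18.8%), against 20.0% of 11762 genes. SLC39A4, SLC30A1, SLC39A11 and SLC39A13 rose (11.6% of all genes did), and SLC30A10 and SLC31A1 fell (8.43%). SLC39A4 was differentially expressed, 1 of 32 members, where 6.27% of all genes were, 3.29% as higher and 2.98% as lower. The samples of resistant and parental cells did not overlap in 14 of the 32, against 40.4% of all genes. The median log2 fold change was 0.16 for the members and 0.12 for all genes. Under median-ratio scaling, which brings the median of all genes to 0.03, and under upper-quartile scaling, 2 members rose and 3 fell. The number that rose was 3 without resistant replicate 1, 1 without resistant replicate 2, parental replicate 1 or parental replicate 2, and 2 without parental replicate 3. With resistant replicate 3 left out, limma passed 0 members, and 4 were higher and 4 lower at an unadjusted p under 0.05. The share of all genes at that unadjusted threshold was not counted, so these numbers do not set the members apart.

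**Figure D2:**
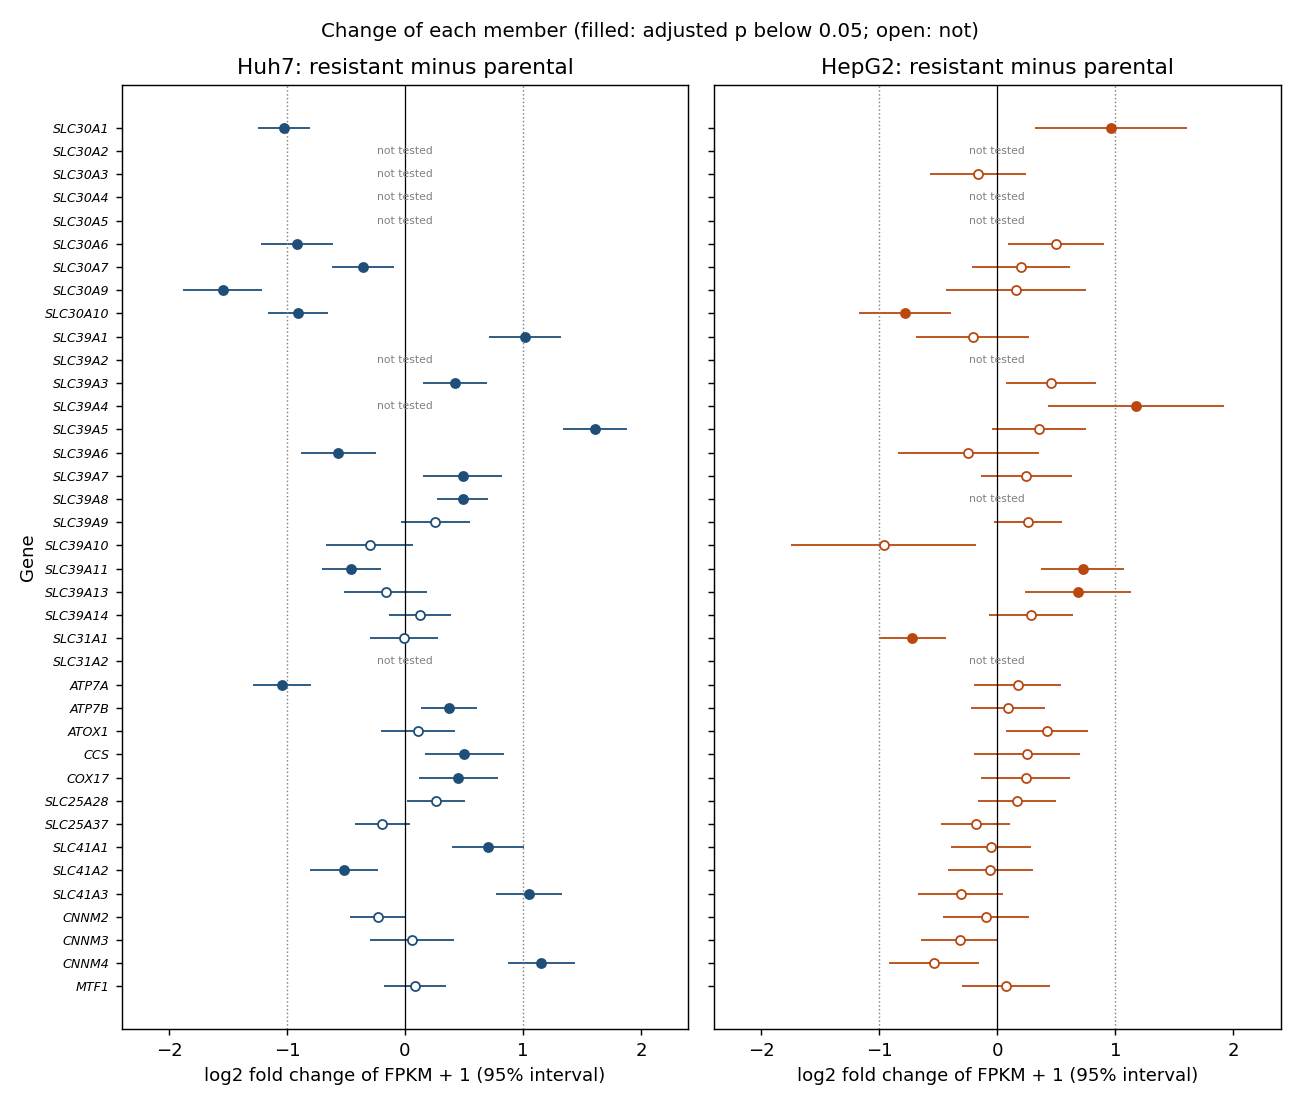
Log2 fold change of FPKM + 1 between resistant and parental cells with its 95% interval, for each member (rows) in Huh7 (left) and HepG2 cells (right). Filled points passed (20 in Huh7, 6 in HepG2), dotted lines mark 1 and -1, and SLC30A1 lies at -1.02 in Huh7 and 0.96 in HepG2 cells.

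Of the 9 SLC30 exporters, 5 were tested in Huh7 cells and all 5 fell, where 37.4% of all genes did. The 5 also fell under upper-quartile and median-ratio scaling. Their median log2 fold change was -0.92. With the GC trend removed, SLC30A1, SLC30A9 and SLC30A10 passed as lower, SLC30A7 passed as higher, and SLC30A6 did not pass. The transcripts of SLC30A1, SLC30A6, SLC30A7 and SLC30A9 have a GC content of 36.2% to 39.1%, under the median of 46.7% over the genes tested. Summed over the 9 exporters, levels were 52.5, 62.8 and 53.0 FPKM in resistant and 97.0, 110.0 and 100.3 in parental Huh7 cells. In HepG2 cells the sums were 93.3, 67.3 and 78.2 in resistant and 57.0, 51.4 and 77.2 in parental samples. There 1 of 6 tested exporters rose and 1 fell, where 11.6% and 8.43% of all genes did. Under upper-quartile or median-ratio scaling 0 rose by limma, where 2 did at an unadjusted p under 0.05 as deposited and 2 with limma-voom.

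SLC30A1 (ENSG00000170385, chr1:211571568-211578742, minus strand), which moves zinc out across the plasma membrane, was at 6.87, 6.24 and 6.39 FPKM in resistant and at 13.8, 14.4 and 14.6 in parental Huh7 cells. Samples within each group lay close together and the groups were far apart. The log2 fold change was -1.02 (SE 0.10, adjusted p = 6.26e-05), and -0.30 (SE 0.09, adjusted p = 0.0242) with the GC trend removed. In HepG2 cells the same gene was at 20.7, 14.6 and 16.6 FPKM in resistant and at 5.91, 6.90 and 13.8 in parental samples. Parental replicate 3 lay near the resistant samples, but the groups did not overlap. The rise, 0.96 (SE 0.28, adjusted p = 0.0446), was close to the threshold, and the adjusted p lay between 0.00657 and 0.138 over 15 alternatives, of which 9 lost the call. It was lost without any resistant replicate (adjusted p = 0.0907, 0.0575 and 0.101 without replicates 1, 2 and 3) and without parental replicate 1 (0.138) or 2 (0.108).

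SLC30A9 (ENSG00000014824, chr4:41990472-42090457, plus strand), a mitochondrial zinc exporter, was at 4.46, 5.31 and 3.68 FPKM in resistant and at 12.7, 16.3 and 15.9 in parental Huh7 cells. Every resistant sample was below every parental one. The fall was -1.55 on the log2 scale (SE 0.15, adjusted p = 6.52e-05), and -0.90 (SE 0.09, adjusted p = 0.000214) without the GC trend. HepG2 cells were low in both states, at 7.76, 4.12 and 5.68 FPKM in resistant and 5.66, 3.31 and 6.50 in parental samples, which overlap (log2 fold change 0.16, SE 0.26, adjusted p = 0.692). Resistant Huh7 cells and both HepG2 groups had means of 4.48 to 5.85 FPKM, and parental Huh7 cells had 14.97.

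SLC30A6 (ENSG00000152683, chr2:32165841-32224379, plus strand), which acts in zinc transport into the Golgi, was at 12.3, 17.1 and 14.4 FPKM in resistant and 27.5, 30.6 and 26.7 in parental Huh7 cells. The groups did not overlap, and the log2 fold change was -0.92 (SE 0.13, adjusted p = 0.0004). With the GC trend removed it was -0.17 (SE 0.13, adjusted p = 0.267), so the call did not hold. In HepG2 cells it was at 36.6, 26.5 and 31.9 FPKM in resistant and 22.1, 18.4 and 25.9 in parental samples. These groups did not overlap either, but the log2 fold change of 0.50 (SE 0.18) did not pass, with an adjusted p of 0.0811. It passed with the GC trend removed (0.50, SE 0.09, adjusted p = 0.00652).

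SLC30A7, a zinc transporter of the Golgi, was at 20.5 to 24.5 FPKM in resistant and 26.4 to 31.4 in parental Huh7 cells. Its log2 fold change was -0.36 (SE 0.12, adjusted p = 0.0233) as deposited and 0.47 (SE 0.11, adjusted p = 0.0067) with the GC trend removed. The deposited call was lost without resistant replicate 1 (adjusted p = 0.0733) or 3 (0.107) and without parental replicate 2 (0.116). SLC30A10, an exporter best known for manganese, fell in both lines. It was at 7.34, 8.92 and 7.47 FPKM in resistant and 15.8, 16.5 and 14.7 in parental Huh7 cells (log2 fold change -0.91, SE 0.11, adjusted p = 0.000182). HepG2 samples had 4.05, 3.37 and 3.37 FPKM when resistant and 6.01, 6.19 and 8.72 when parental (-0.78, SE 0.17, adjusted p = 0.0162, and 0.0771 without resistant replicate 3). The samples of the states did not overlap in either line, and the fall without the GC trend was -0.998 in Huh7 and -0.74 in HepG2 cells. The difference between the 2 falls was -0.13 (95% interval -0.55 to 0.30, adjusted p = 0.602).

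**Figure D3:**
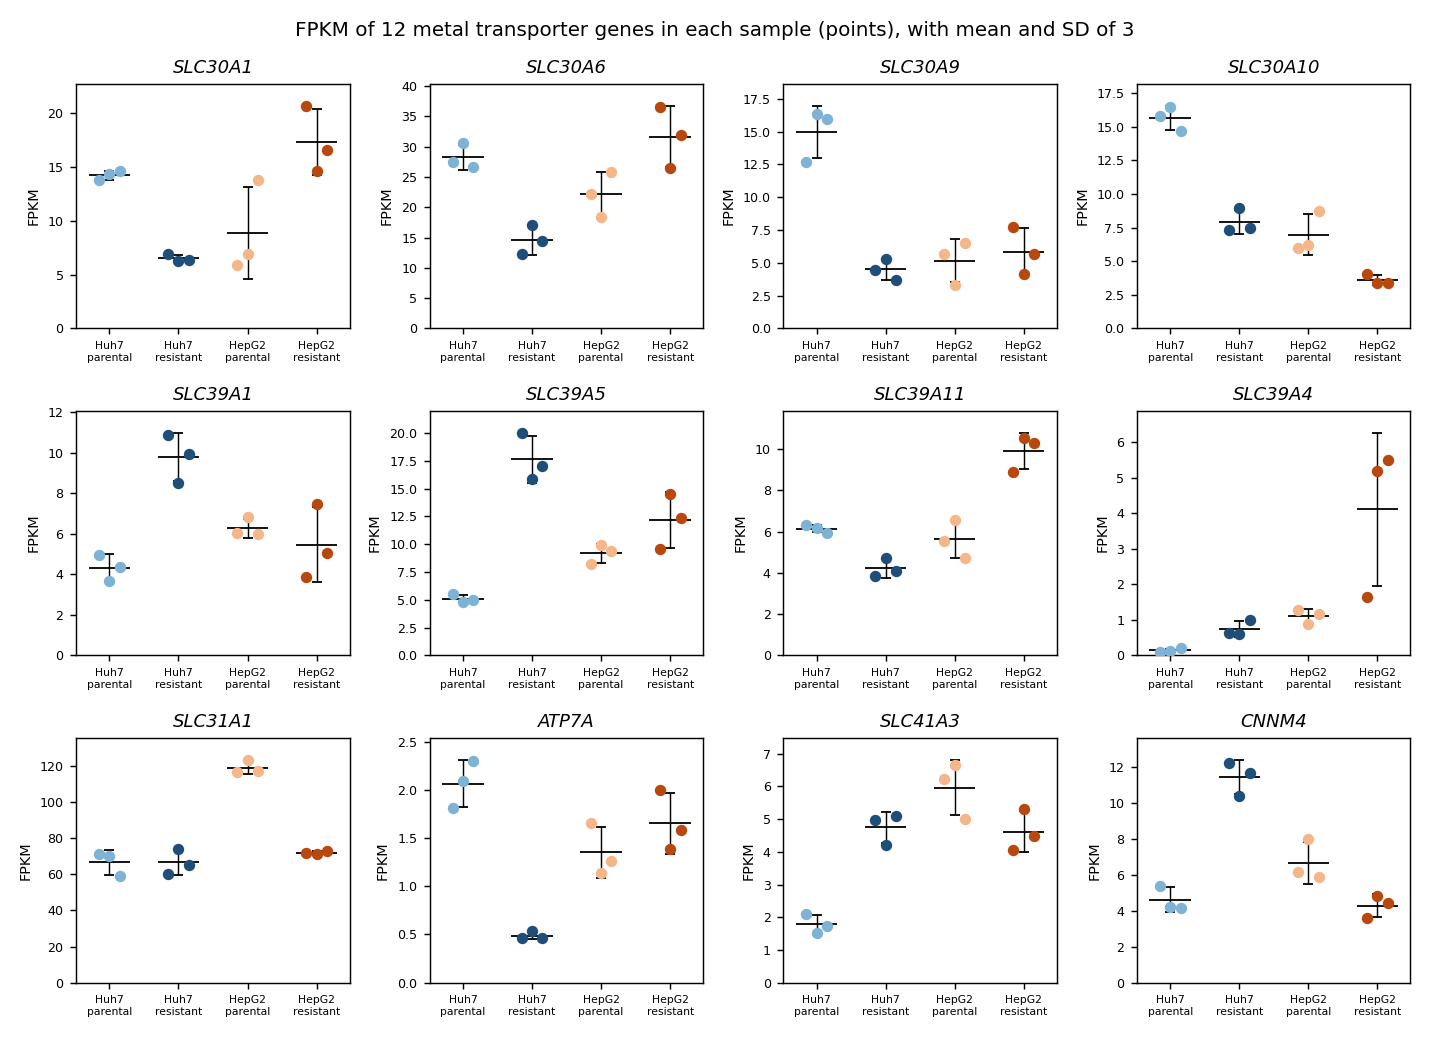
FPKM of 12 members in each of the 12 samples (points), with the mean and SD of each group of 3 (lines and bars); every axis starts at 0. SLC30A1 is lower in resistant than in parental Huh7 cells (means 6.50 and 14.2 FPKM) and higher in resistant than in parental HepG2 cells (17.3 and 8.85).

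SLC39 importers moved in both directions in Huh7 cells. Of the 13, 11 were tested, 5 rose and 2 fell, where 32.7% and 37.4% of all genes did. The median log2 fold change was 0.26. The median was -0.01 with the GC trend removed, and 5 passed as higher and 2 as lower, not all of them the same genes. SLC39A1, SLC39A5 and SLC39A8 were higher and SLC39A11 lower in both fits, SLC39A9 and SLC39A10 were higher and SLC39A13 lower only without the GC trend, and SLC39A3, SLC39A6 and SLC39A7 passed only as deposited. Summed over the 13, the importers were at 113.0, 120.5 and 116.5 FPKM in resistant and at 99.2, 94.0 and 94.8 in parental Huh7 cells. In HepG2 cells 3 of 11 rose and 0 fell by the limma test (4 and 1 at an unadjusted p under 0.05, and by limma-voom). Of all genes 11.6% rose and 8.43% fell there. The sums were 122.5, 143.5 and 137.3 FPKM in resistant and 118.2, 111.9 and 118.5 in parental HepG2 samples. The number of importers that rose was 2 under median-ratio and upper-quartile scaling, and 4 with the GC trend removed.

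SLC39A5 (ENSG00000139540, chr12:56230049-56237846, plus strand), a zinc importer of the basolateral membrane, was at 19.99, 15.8 and 17.0 FPKM in resistant and at 5.51, 4.76 and 4.95 in parental Huh7 cells. The lowest resistant sample was far above the highest parental one. The log2 fold change was 1.61 (SE 0.12, adjusted p = 2.39e-05), and 1.03 (SE 0.10, adjusted p = 0.000154) with the GC trend removed. HepG2 samples were at 9.56, 14.5 and 12.4 FPKM when resistant and 8.24, 9.95 and 9.37 when parental, and these overlapped (0.36, SE 0.17, adjusted p = 0.176).

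SLC39A1 (ENSG00000143570, chr1:153959099-153968184, minus strand), an importer of the plasma membrane, was at 10.9, 8.49 and 9.95 FPKM in resistant and 4.97, 3.66 and 4.35 in parental Huh7 cells. The groups were apart, with a log2 fold change of 1.02 (SE 0.13, adjusted p = 0.000259) and of 0.42 (SE 0.09, adjusted p = 0.00556) without the GC trend. The HepG2 values, 3.85, 7.48 and 5.03 FPKM in resistant and 6.02, 6.82 and 5.97 in parental samples, overlap (-0.21, SE 0.21, adjusted p = 0.497). In the annotation 69.1% of its exon bases are shared with other genes, 60.83% with AL358472.7 on the same strand, and how such reads were counted is not given in the sources used here, so its level is uncertain.

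SLC39A11 (ENSG00000133195, chr17:72645949-73092712, minus strand), an importer reported at the Golgi, moved in opposite directions in the lines. It was at 3.86, 4.74 and 4.09 FPKM in resistant and 6.30, 6.18 and 5.95 in parental Huh7 cells, so it fell by 0.45 on the log2 scale (SE 0.11, adjusted p = 0.00526). HepG2 samples had 8.91, 10.5 and 10.3 FPKM when resistant and 5.55, 6.56 and 4.74 when parental, a rise of 0.73 (SE 0.15, adjusted p = 0.0146). In neither line did the groups overlap. With the GC trend removed, the changes were -0.76 (adjusted p = 0.000298) and 0.77 (adjusted p = 0.00168). The HepG2 call was lost without resistant replicate 3 (adjusted p = 0.0781), one of 15 alternatives. In its span lie 8 NONCODE rows, the highest at a mean of 8.58 FPKM, which could hold reads of the same locus.

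SLC39A4, the importer that takes up dietary zinc in the intestine, was at 1.64, 5.21 and 5.50 FPKM in resistant and 1.29, 0.873 and 1.16 in parental HepG2 cells. Resistant replicate 1 lay near the parental samples and the other two far above them. The log2 fold change was 1.17 (SE 0.33, adjusted p = 0.0377), and the call did not hold without the filter on low values (adjusted p = 0.125) or with any single sample left out other than resistant replicate 1. Without resistant replicates 2 and 3 the adjusted p was 0.0943 and 0.114, and without parental replicates 1, 2 and 3 it was 0.0892, 0.0911 and 0.0749. In Huh7 cells the gene was under the filter, at 0.639, 0.598 and 0.993 FPKM in resistant and 0.111, 0.130 and 0.197 in parental samples, or 58 to 95 reads against 10 to 16. The groups did not overlap, and without the filter the log2 fold change was 0.60 (SE 0.10, adjusted p = 0.0045).

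Among the other importers, SLC39A8, which carries zinc, manganese and iron, rose in Huh7 cells from 4.10 to 4.28 FPKM to 6.19 to 6.33 (0.49, SE 0.10, adjusted p = 0.0019). Its change without the GC trend was 0.61. In HepG2 cells it had at most 0.470 FPKM in a sample and was not tested. SLC39A3, a plasma membrane importer, rose in Huh7 cells (0.42, SE 0.12, adjusted p = 0.0118), and so did SLC39A7, which releases zinc from the endoplasmic reticulum (0.49, SE 0.15, adjusted p = 0.0158). Neither held without the GC trend, at -0.19 and -0.07. Both also lost the call without resistant replicate 1 (adjusted p = 0.051 and 0.0506) or parental replicate 2 (0.0519 and 0.0612). In HepG2 cells the groups of SLC39A3 did not overlap, but its change did not pass (0.45, SE 0.17, adjusted p = 0.0892). It passed there with the GC trend removed (0.43, adjusted p = 0.0241). SLC39A6, an importer of the plasma membrane, fell in Huh7 cells (-0.56, SE 0.14, adjusted p = 0.00632) and was at -0.14 (adjusted p = 0.205) without that trend.

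SLC39A13, an importer of the secretory pathway, rose in HepG2 cells, with 4.60, 7.54 and 8.01 FPKM in resistant and 3.54, 3.78 and 3.80 in parental samples (0.68, SE 0.20, adjusted p = 0.0427). The call held only with resistant replicate 1 left out, of the 6 samples. The adjusted p was 0.119 and 0.175 without resistant replicates 2 and 3, and 0.118, 0.0819 and 0.0802 without parental replicates 1, 2 and 3. SLC39A14, the importer with the highest level, was at 44.5, 52.7 and 48.6 FPKM in resistant and 33.4, 41.6 and 44.6 in parental HepG2 cells, which just overlap. Huh7 samples overlapped too, at 21.95, 25.17 and 23.10 FPKM when resistant and 24.2, 20.1 and 19.9 when parental. Its log2 fold change was 0.29 (SE 0.15, adjusted p = 0.218) in HepG2 and 0.13 (SE 0.11, adjusted p = 0.343) in Huh7 cells, and -0.0091 in Huh7 cells without the GC trend. SLC39A10, a partner of SLC39A6, was at 4.22, 2.66 and 3.18 FPKM in resistant and 14.3, 5.52 and 4.91 in parental HepG2 cells. Parental replicate 1 stood apart there, and the log2 fold change of -0.96 (SE 0.34) did not pass (adjusted p = 0.0812). SLC39A9, a Golgi transporter, had a log2 fold change of 0.26 in both lines, with adjusted p-values of 0.104 in Huh7 and 0.176 in HepG2 cells. In Huh7 cells without the GC trend it passed as higher (0.52, SE 0.10, adjusted p = 0.00334). There SLC39A10 also passed as higher (0.45, adjusted p = 0.0036, against -0.30 and 0.126 as deposited) and SLC39A13 as lower (-0.74, adjusted p = 0.000355, against -0.16 and 0.355).

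In the copper group, 6 of 7 genes were tested in each line. In Huh7 cells 3 rose and 1 fell, and in HepG2 cells 1 fell and 0 rose by limma (1 at an unadjusted p under 0.05, and 1 by limma-voom). Of all genes, 32.7% rose and 37.4% fell in Huh7 cells, and 11.6% rose and 8.43% fell in HepG2 cells. SLC31A1 (ENSG00000136868, chr9:113221562-113264492, plus strand) was at 60.3, 74.1 and 65.3 FPKM in resistant and 71.4, 70.1 and 58.8 in parental Huh7 cells. These groups overlapped throughout, and the log2 fold change was -0.0048 (95% interval -0.29 to 0.28), and 0.19 (adjusted p = 0.121) without the GC trend. In HepG2 cells the copper importer was at 71.6, 71.1 and 72.8 FPKM in resistant and 116, 123 and 117 in parental samples. The samples within each group lay close together and the groups were far apart. The fall was -0.72 (SE 0.12, adjusted p = 0.0065), and it did not pass without resistant replicate 3 (adjusted p = 0.052). A NONCODE row on the same strand covers the locus at a mean of 8.06 FPKM.

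ATP7A (ENSG00000165240, chrX:77910656-78050395, plus strand), the copper-exporting ATPase of most tissues other than liver, was low in these cells. It was at 0.463, 0.532 and 0.467 FPKM in resistant and 1.81, 2.09 and 2.30 in parental Huh7 cells, or 96 to 112 reads against 355 to 405. No sample of one group came near the other, and the gene entered the test only because its 3 parental samples reached 1 FPKM. The log2 fold change was -1.04 (SE 0.11, adjusted p = 9.28e-05), and -0.38 (SE 0.08, adjusted p = 0.00576) with the GC trend removed. HepG2 samples overlapped, at 2.00, 1.38 and 1.58 FPKM when resistant and 1.65, 1.14 and 1.26 when parental (0.18, SE 0.16, adjusted p = 0.463).

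ATP7B, the copper ATPase of hepatocytes, was more abundant than ATP7A in each group by FPKM. It was at 13.1, 13.7 and 14.1 FPKM in resistant and 11.3, 10.2 and 9.49 in parental Huh7 cells, a rise of 0.37 (SE 0.10, adjusted p = 0.0117), and its groups did not overlap. The change was -0.06 (adjusted p = 0.447) with the GC trend removed, and did not pass without resistant replicate 3 (0.0629) or parental replicate 2 (0.0502). HepG2 samples were at 14.4 to 17.1 FPKM when resistant and 13.6 to 16.0 when parental, which overlap (0.09, SE 0.14, adjusted p = 0.661).

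Of the copper chaperones, CCS, which loads superoxide dismutase SOD1, was at 16.9, 11.8 and 15.1 FPKM in resistant and 10.9, 10.2 and 8.76 in parental Huh7 cells. It rose by 0.50 (SE 0.15, adjusted p = 0.0138), but was at -0.07 (adjusted p = 0.53) without the GC trend, and did not pass without resistant replicate 1 (0.0533). HepG2 cells had much less, at 1.81, 2.70 and 2.00 FPKM in resistant and 1.51, 2.34 and 1.21 in parental samples (0.25, SE 0.20, adjusted p = 0.386). COX17, which delivers copper to cytochrome c oxidase, rose in Huh7 cells from 2.69, 2.68 and 4.05 FPKM to 4.25, 4.61 and 4.96 (0.45, SE 0.15, adjusted p = 0.0226), and by 0.73 (adjusted p = 0.00211) without the GC trend. The deposited call was lost without resistant replicate 2 (adjusted p = 0.0516) or 3 (0.0685) and without parental replicate 1 (0.0611) or 2 (0.0806). The HepG2 samples overlapped, at 1.87 to 2.20 FPKM when resistant and 1.29 to 2.10 when parental (0.24, SE 0.17, adjusted p = 0.328). COX17 shares 17.63% of its exon bases with POPDC2 on the same strand. In its span lie 4 NONCODE rows, the highest at a mean of 4.10 FPKM, against 2.84 for COX17 itself, so its level is uncertain.

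ATOX1, the chaperone of the copper ATPases, was at 1.52 to 1.61 FPKM in resistant and 0.969 to 1.68 in parental Huh7 cells (0.11, SE 0.14, adjusted p = 0.484, and 0.24 without the GC trend, adjusted p = 0.16). HepG2 samples had 1.25, 1.73 and 1.57 FPKM when resistant and 1.03, 0.885 and 0.716 when parental. Those groups did not overlap, but 0.42 (SE 0.15) did not pass, with an adjusted p of 0.0829. SLC31A2, a low-affinity copper transporter, was under the filter in both lines, at 0.102 to 1.33 FPKM over the 12 samples. It shares 63.06% of its exon bases with FKBP15 on the opposite strand.

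Among the magnesium transporters, CNNM4 and SLC41A3 rose most in Huh7 cells. Of the 6, all were tested, and 3 rose and 1 fell in Huh7 cells, where 32.7% and 37.4% of all genes did. In HepG2 cells 0 passed by limma, against 20.0% of all genes. There, 1 was lower at an unadjusted p under 0.05, and 1 passed as lower by limma-voom and under upper-quartile or median-ratio scaling. CNNM4 (ENSG00000158158, chr2:96760902-96811891, plus strand), a magnesium transporter of the basolateral membrane, was at 12.2, 10.4 and 11.7 FPKM in resistant and 5.39, 4.22 and 4.17 in parental Huh7 cells. The groups were far apart, with a log2 fold change of 1.15 (SE 0.12, adjusted p = 0.000105) and of 0.59 (SE 0.06, adjusted p = 0.000301) without the GC trend. HepG2 samples had 3.56, 4.83 and 4.41 FPKM when resistant and 6.15, 8.00 and 5.84 when parental. The groups did not overlap there either, and the log2 fold change of -0.54 (SE 0.17) was just outside the threshold (adjusted p = 0.0547), and passed with the GC trend removed (-0.53, adjusted p = 0.00424).

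SLC41A3 (ENSG00000114544, chr3:126006355-126101561, minus strand), a magnesium transporter of mitochondria, was at 4.96, 4.21 and 5.08 FPKM in resistant and 2.09, 1.53 and 1.72 in parental Huh7 cells. It rose by 1.05 (SE 0.12, adjusted p = 0.000149), and by 0.57 (SE 0.08, adjusted p = 0.00106) without the GC trend. HepG2 samples were at 4.07, 5.29 and 4.48 FPKM when resistant and 6.22, 6.64 and 5.02 when parental, and these overlapped (-0.31, SE 0.16, adjusted p = 0.195). SLC41A1, which exports magnesium in exchange for sodium, rose in Huh7 cells (0.71, SE 0.13, adjusted p = 0.00165) and was at 0.24 (adjusted p = 0.0738) without the GC trend. SLC41A2, its close relative, fell by 0.52 (SE 0.13, adjusted p = 0.00623) as deposited and passed as higher, at 0.34 (adjusted p = 0.00575), without that trend. CNNM3, of the same family as CNNM4, was at 4.99 to 6.83 FPKM in resistant and 4.62 to 6.81 in parental Huh7 cells (0.06, SE 0.15, adjusted p = 0.75), and CNNM2 at 1.77 to 1.95 and 2.20 to 2.56 (-0.23, SE 0.10, adjusted p = 0.0807). Without the GC trend both passed as lower, CNNM3 at -0.52 (adjusted p = 0.0016) and CNNM2 at -0.35 (adjusted p = 0.00617). In HepG2 samples CNNM3, the magnesium transporter with the highest mean, had 8.00, 9.56 and 9.63 FPKM when resistant and 10.78, 12.84 and 10.97 when parental. These did not overlap, and the log2 fold change of -0.32 (SE 0.14) did not pass (adjusted p = 0.148), but did with the GC trend removed (-0.44, adjusted p = 0.0161).

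The mitochondrial iron carriers SLC25A37 and SLC25A28 (mitoferrin 1 and 2) and MTF1 did not pass in either line as deposited, though SLC25A28 did in Huh7 cells under upper-quartile and median-ratio scaling. SLC25A28 was at 8.80, 9.13 and 9.02 FPKM in resistant and 8.22, 6.56 and 7.26 in parental Huh7 cells, without overlap, and its log2 fold change was 0.26 (SE 0.11, adjusted p = 0.0581). The HepG2 samples overlapped, at 8.95, 11.5 and 10.7 FPKM when resistant and 9.46, 9.55 and 8.30 when parental (0.17, SE 0.15, adjusted p = 0.436). Without the GC trend both carriers passed as lower in Huh7 cells, at -0.35 (SLC25A28) and -0.51 (SLC25A37). MTF1, which senses zinc, was at 3.84, 4.89 and 4.13 FPKM in resistant and 4.19, 3.94 and 3.73 in parental Huh7 cells, and at 4.29, 3.46 and 4.57 and 3.45, 3.48 and 4.67 in HepG2 cells. The groups overlapped in both lines. The differences were 0.09 (95% interval -0.17 to 0.35) and 0.07 (95% interval -0.30 to 0.45), and 0.03 (adjusted p = 0.738) in Huh7 cells without the GC trend, so as deposited a change of the MTF1 level beyond about 0.45 lies outside both intervals.

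**Figure D4:**
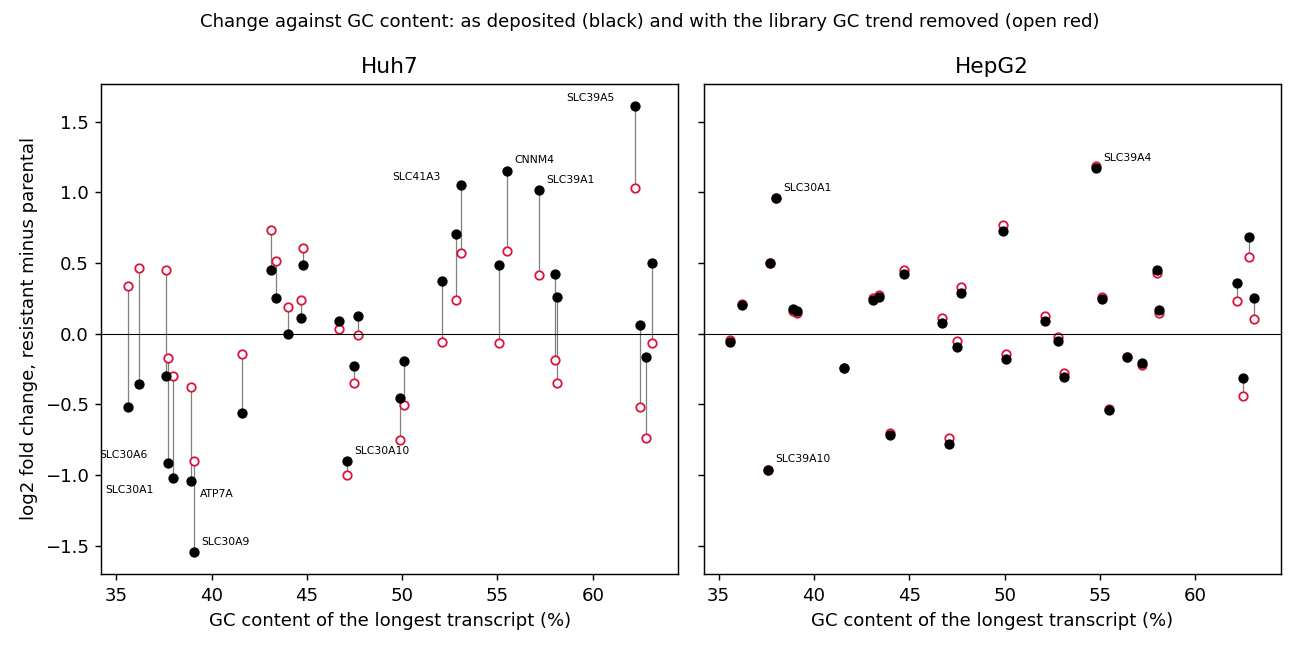
Log2 fold change of each tested member against the GC content of its longest transcript (%), in Huh7 (31 members) and HepG2 cells (32 members). Black points are as deposited and open red points have each library's GC trend removed; in Huh7 cells the black points climb with GC content (Spearman correlation 0.673), in HepG2 cells they do not (0.0605).

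Whether a change differed between the lines was tested as the interaction of cell line and resistance over all 12 samples, in which the median over all genes was -0.155. Of 33 members tested, 14 passed (42.4%, against 56.3% of 13800 genes), 7 in each direction, where 23.1% of all genes were positive and 33.2% negative. A difference beyond 1 was found for 9 (27.3%, against 28.8%), 4 above 1 (10.6% of all genes) and 5 below -1 (18.2%). The difference, Huh7 change minus HepG2 change, was negative for SLC30A1 (-1.99, SE 0.33, adjusted p = 0.000455), SLC30A9 (-1.70), SLC30A6 (-1.42), ATP7A (-1.22) and SLC39A11 (-1.18). It was positive for CNNM4 (1.69, SE 0.20, adjusted p = 5.79e-05), SLC41A3 (1.36), SLC39A5 (1.26) and SLC39A1 (1.23). Of the zinc exporters 4 of 6 passed, each with a negative difference, and 3 of them with the GC trend removed, where SLC30A7 was at 0.23 (adjusted p = 0.253). SLC31A1 also passed, at 0.71 (SE 0.15, adjusted p = 0.00203). With the GC trend removed, each of the 9 passed with the same sign, at -1.29 for SLC30A1, -1.08 for SLC30A9, -0.70 for SLC30A6, -0.58 for ATP7A, -1.49 for SLC39A11, 1.17 for CNNM4, 0.90 for SLC41A3, 0.83 for SLC39A5 and 0.69 for SLC39A1. Only SLC30A1, SLC30A9, SLC39A11 and CNNM4 of these stayed beyond 1. SLC39A10 (1.38, adjusted p = 0.00888), SLC39A13 (-1.25, adjusted p = 3e-05) and SLC39A4 (-1.08, adjusted p = 0.0261) then also lay beyond 1, which made 7 in all.

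The parental lines differed from each other before resistance, and these comparisons share the parental samples with those above. Of 31 members tested between parental Huh7 and parental HepG2 cells, 20 passed (64.5%, against 65.2% of 12796 genes), 10 higher in Huh7 (39.0% of all genes) and 10 higher in HepG2 cells (26.2%). A difference beyond 1 was found for 6 (19.4%, against 31.9%), 4 of them higher in Huh7 (19.4% of all genes) and 2 higher in HepG2 cells (12.5%). The samples did not overlap in 23, against 70.0% of all genes. The median over all genes was 0.19. Parental Huh7 cells had more CCS (9.96 against 1.68 FPKM, log2 difference 2.05, SE 0.18, adjusted p = 2.6e-05), SLC39A8 (4.17 against 0.383, 1.90, SE 0.11, adjusted p = 2.79e-06), SLC30A9 (14.97 against 5.16, 1.41) and SLC30A10 (15.7 against 6.97, 1.08). SLC39A8 entered this test only because the 3 Huh7 samples reached 1 FPKM. Parental HepG2 cells had more SLC41A3 (5.96 against 1.78 FPKM, -1.32, SE 0.15, adjusted p = 0.00011) and SLC41A1 (4.63 against 1.31, -1.28). With the GC trend removed, these 6 differences were 2.37, 1.85, 0.997, 1.13, -1.01 and -0.98 in the same order. All 6 magnesium transporters passed, 5 of them higher in HepG2 cells, and 4 passed, as higher in HepG2 cells, without that trend.

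Members under the filter had few reads. In Huh7 cells 7 were not tested and in HepG2 cells 6. SLC30A4, a transporter that loads zinc into vesicles, had 2 to 5 reads in resistant and 19 to 23 in parental Huh7 cells, and 0 to 4 in HepG2 samples. Without the filter it passed as lower in Huh7 cells (-0.18, SE 0.03, adjusted p = 0.00279). SLC30A5, which pairs with SLC30A6 in the Golgi, had 42 to 83 reads per sample and did not pass in that fit (adjusted p = 0.238 in Huh7 and 0.427 in HepG2 cells). SLC30A3, a zinc transporter of synaptic vesicles, had 1 to 6 reads in Huh7 samples and 76 to 125 in HepG2 samples, where it was tested (-0.16, SE 0.18, adjusted p = 0.535). SLC30A2 had 0 to 4 reads and SLC39A2 0 to 5, and SLC39A2 was listed at 0 in each resistant HepG2 sample.

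The members' partners in metal handling were drawn from 5 further lists. Their counts as deposited stand beside 32.7% higher and 37.4% lower of all genes in Huh7 cells and 11.6% and 8.43% in HepG2 cells. Of the metallothioneins, zinc- and copper-binding proteins driven by MTF1, 6 of 7 tested rose in resistant HepG2 cells (median over the 7 of 2.94 on the log2 scale), and 3 of 6 rose in resistant Huh7 cells. In Huh7 cells 2 passed as higher and 3 as lower with the GC trend removed. MT1G went from a mean of 45.3 to 611 FPKM in HepG2 cells (3.98, SE 0.47, adjusted p = 0.00146) and from 9.38 to 82.3 in Huh7 cells (2.99, SE 0.20, adjusted p = 1.48e-05, and 2.39 without the GC trend). Reads can be shared among these near-identical genes, so the level of 1 copy is uncertain. Of copper delivery genes and copper enzymes, 5 of 16 rose and 6 fell in Huh7 cells, and 1 of 14 rose and 1 fell in HepG2 cells. In Huh7 cells without the GC trend 8 passed as higher and 6 as lower, and 1 instead of 3 was differentially expressed. Of those that passed in Huh7 cells, the largest change was that of CP, ceruloplasmin, which fell from a mean of 8.14 to 0.95 FPKM in Huh7 cells (-2.20, SE 0.18, adjusted p = 3.27e-05, and -1.56 without the GC trend). Its resistant samples alone would not have met the filter of 1 FPKM in 3 samples. STEAP3, a metalloreductase, rose in Huh7 (0.9995, and 0.40 without the GC trend) and HepG2 cells (0.91). LOX, a copper-dependent lysyl oxidase, fell in Huh7 (-1.20, and -0.60 without the GC trend) and HepG2 cells (-0.89).

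Of the other magnesium genes, 1 of 9 rose and 5 fell in Huh7 cells, and 1 of 6 rose and 1 fell in HepG2 cells. Without the GC trend 4 passed as higher and 5 as lower in Huh7 cells, and 1 instead of 3 was differentially expressed. TRPM7, a channel for magnesium and zinc, fell in Huh7 (-1.34, SE 0.13, adjusted p = 8.21e-05, and -0.74 without the GC trend) and rose in HepG2 cells (0.74, SE 0.21, adjusted p = 0.0424). The HepG2 call was close to the threshold. It passed with the GC trend removed (0.73, adjusted p = 0.0048). It was lost without the filter on low values, under upper-quartile or median-ratio scaling, and without resistant replicate 3, where 0 of the list passed as higher. MAGT1 fell in Huh7 cells (-1.16, SE 0.13, adjusted p = 0.000117, and -0.66 without the GC trend). Of genes of mitochondrial iron use, 2 of 8 rose and 2 fell in Huh7 cells. In HepG2 cells 0 of 8 passed by limma (2 were higher at an unadjusted p under 0.05, and 1 by limma-voom). With the GC trend removed, 2 passed as higher there, ALAS1 (0.46, adjusted p = 0.0229) and ABCB8 (0.49, adjusted p = 0.0206). ALAS1, which begins haem synthesis, rose in Huh7 cells (1.11, SE 0.11, adjusted p = 7.64e-05, and 0.69 without the GC trend). In Huh7 cells without that trend, 3 of the list passed as higher and 3 as lower. Of further zinc and manganese transporters, 2 of 4 fell in Huh7 cells, ATP2C1 (-0.58, and -0.14 with an adjusted p of 0.108 without the GC trend) and TMEM165 (-0.51, and -0.40), both of the Golgi, and 0 of 4 passed in HepG2 cells by limma (0 at an unadjusted p under 0.05, and 0 by limma-voom).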

How the data were processed

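Condition and replicate number of the 12 samples were taken from the labels. Libraries were made from total RNA with the NEBNext Ultra kit, per the labels, and the submitters' processing notes name GRCh38 and bcl2fastq; aligner and quantification tool are not given in the sources used here. Each deposited table holds 1 decimal value per gene without a stated unit (27249 Ensembl and 71462 NONCODE genes). The authors' values behave as FPKM. The depth of each sample was estimated from genes with a single exon, with exon lengths of GENCODE 29. Of their values of up to 2000 reads, 99.25% to 99.42% fall within 0.05 of a whole number of reads in each sample. At that depth, between 96.26% and 96.52% of such values over all Ensembl genes do. NONCODE rows lie in the span of 25 members, 14 of them with one at 1 FPKM or more.

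Ensembl genes that reached 1 FPKM in 3 or more of the samples compared were tested with limma 3.58.1 (R 4.3.3, empirical Bayes variances with a trend) on log2(FPKM + 1), with Benjamini-Hochberg adjustment, in Huh7, in HepG2, between parental lines and for the interaction. Members, lists and tests were chosen with earlier results of these data known. Members named in full were those differentially expressed or with a difference between lines beyond 1, the copper group, SLC30A1, MTF1 and the most abundant of each family. To remove the GC trend, each library's difference from its line's mean was smoothed over GC content (lowess, span 0.3) and the smooth subtracted. For the comparison between parental lines, the difference was taken from the mean over both lines. On simulated data with 200 changed genes, 98.5% were recovered in Huh7 and in HepG2, 94% for the interaction and 98% between parental lines, with 11 to 19 false calls. The mean error of the planted changes was 0.26 to 0.33 on the log2 scale. Every planted change was beyond 1 on that scale, in genes with a mean well above 1 FPKM. All genes had the same relative spread, and no GC trend was added. Recovery of smaller changes, of genes near 1 FPKM, or under such a trend, was not tested. Python 3.11.15 with pandas 2.3.3 and numpy 2.4.6 was used for tables.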

Additional observations from a re-analysis of the deposited data

Results flagged for a closer look

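In 9 members the change between resistant and parental cells differed between the lines by more than 1 on the log2 scale, tested as the interaction of line and resistance over 12 samples with limma. The difference, Huh7 change minus HepG2 change, was -1.99 for SLC30A1, which fell in Huh7 and rose in HepG2 cells, although the HepG2 call was lost in 9 of 15 alternatives. It was -1.18 for SLC39A11, which also fell in Huh7 and rose in HepG2 cells. For SLC30A6 (-1.42), SLC30A9 (-1.70) and ATP7A (-1.22), the fall in Huh7 cells passed as deposited and the HepG2 value did not. For SLC39A1 (1.23), SLC39A5 (1.26), SLC41A3 (1.36) and CNNM4 (1.69), the rise in Huh7 cells passed as deposited and the HepG2 value did not. With the GC trend removed, SLC30A6 passed in HepG2 (0.50, adjusted p = 0.00652) and not in Huh7 cells (-0.17, adjusted p = 0.267). CNNM4 then also passed in HepG2 cells (-0.53, adjusted p = 0.00424). Of the 9 differences, only those of SLC30A1, SLC30A9, SLC39A11 and CNNM4 stayed beyond 1 without that trend. Among all genes tested, 28.8% differed by as much. No group had more than 3 samples, so single samples that stand apart were not tested for.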

How the results depend on the processing

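Over 26 results on named members, 409 of 437 alternatives kept direction and side of the threshold, 26 lost the call and 2 reversed. The reversed ones were ATP7B (-0.0595, adjusted p = 0.447) and CCS (-0.0651, adjusted p = 0.53) in Huh7 cells with the GC trend removed, where SLC39A3, SLC39A7, SLC30A7 and SLC41A2 also changed sign. With that trend removed, 1 member was differentially expressed in Huh7 cells instead of 7. In HepG2 cells 6 then passed as higher instead of 4, and 4 as lower instead of 2. In HepG2 cells, 4 members rose as reported, against 1 without the filter, 2 under upper-quartile or median-ratio scaling, and 7 with limma-voom on reads or all 12 samples in one fit. The number that fell there was 4 with limma-voom and with all 12 samples. Differential expression there was called for 0 without the filter and for 3 with limma-voom. Leaving out 1 sample gave 7 to 11 that rose, 7 to 9 that fell and 4 to 7 differentially expressed in Huh7 cells, and 0 to 3, 0 to 2 and 0 to 1 in HepG2 cells. Of the 20 Huh7 calls 13 passed in all 6 of these fits, and ATP7A in the 3 in which it was tested. Of the 6 HepG2 calls 0 passed in all 6, though SLC30A10, SLC39A11 and SLC31A1 each passed in 5. For differences between the lines it gave 9 to 10, and between parental lines 5 to 8. Samples of the same number did not deviate together in every pair (correlations -0.23 to 0.08 in Huh7 and -0.01 to 0.44 in HepG2 cells). Samples of different numbers had correlations of -0.33 to 0.28 in Huh7 and -0.42 to 0.21 in HepG2 cells. The labels do not say whether a number marks a shared culture, and these values do not settle it. With the replicate number as a block, 5 members rose in HepG2 cells instead of 4, and 4 fell instead of 2. Huh7 counts were as without it. The interaction median moved from -0.16 to -0.03 under median-ratio scaling. Depth limits the members under the filter, of which SLC30A2, SLC39A2 and HepG2 SLC30A4 had at most 5 reads.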
